A study of Mus musculus with 7 samples.

Results

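The transcripts of 10 genes that drive or restrain passage through G1 were followed in T-cells that carry an ORP4L knock-in (KI) and in T-cells of wild-type (WT) littermates. They were set by symbol, with no threshold on a value but with earlier results of these data known, and comprise the D-type cyclins Ccnd1, Ccnd2 and Ccnd3, the E-type cyclins Ccne1 and Ccne2, the kinases Cdk4, Cdk6 and Cdk14, and the kinase inhibitors Cdkn1b and Cdkn2c. All 10 were among the 25033 genes listed in each library, and all 10 were among the 13462 genes that passed the filter on low counts.

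Libraries came from 3 WT and 4 ORP4L KI mice, 1 per mouse, and the labels give C57BL/6J as the strain and 15 months as the age of every mouse. The KI mice carried a human ORP4L coding sequence in the Rosa26 locus, behind the CAG promoter and a loxP-flanked stop, which Cre under the T-cell promoter Lck removed. They were moribund when sampled, so the allele and the state of illness cannot be told apart, and whether the WT littermates carried Cre is not given in the sources used here. The methods describe T-cells from blood mononuclear cells or spleen, a kit for naive CD4+ cells and culture with IL-2 and phytohemagglutinin, without saying which of these applied to the sequenced cells.

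In G1, D-type cyclins activate Cdk4 and Cdk6, which phosphorylate the retinoblastoma protein and so free E2F factors to transcribe the genes of S phase. Cyclin E with Cdk2 completes that phosphorylation, and the inhibitors p27 (Cdkn1b) and p18 (Cdkn2c) hold the kinases back. Cyclin D2 and cyclin D3 are the D-type cyclins usually found in T-cells, and resting T-cells hold p27 at a high level until they are stimulated.

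The total count per library lay between 12918187 and 15912921 in WT and between 16757959 and 19665679 in ORP4L KI. Levels are given as CPM (the count scaled by library size) after TMM scaling, and between genes as the deposited RPKM, which also divides by transcript length. The endogenous mouse counterpart of ORP4L, Osbp2, had 0, 0 and 1 reads in the WT libraries and 188, 742, 155 and 443 in ORP4L KI replicates 1 to 4. Whether these reads came from the introduced human sequence was not tested. Cd3e, a T-cell receptor subunit, lay between 115 and 176 CPM in WT and between 117 and 245 CPM in ORP4L KI. Cd4 and Cd8a were both present in every library, with lowest values of 93.4 and 79.6 CPM. ORP4L KI replicate 1 stood apart in its granulocyte markers, which took 12.2% of its counts, and the log2 fold changes of the G1 genes are also given without it. The other ORP4L KI libraries, at 1.13% to 4.90%, also lay above the WT range of 0.259% to 0.564%.

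By edgeR's quasi-likelihood test, the rule for a call was a log2 fold change over 1 in size together with an unadjusted p below 0.01, which held for 4.68% of all genes tested. Of the 10 G1 genes, 3 met this rule: Ccne2 rose in ORP4L KI T-cells, and Ccnd1 and Cdk14 fell. The same rule called 2.38% of all genes higher and 2.3% lower in ORP4L KI. At a Benjamini-Hochberg adjusted p under 0.05, which 0.0223% of all genes reached (0.00743% higher and 0.0149% lower), edgeR's quasi-likelihood test called 0 of the 10, against 3 by DESeq2's Wald test (Ccnd1, Ccne2 and Cdk14), which called 5.82% of all genes. An unadjusted p under 0.05 was found for 5 of the 10 and for 13.7% of all genes. Ccnd3, Ccne2 and Cdk6 were higher at that threshold, as were 6.85% of all genes, and Ccnd1 and Cdk14 were lower, as were 6.86%. In sign, 7 of the 10 genes were higher and 3 lower, with a median log2 fold change of 0.44 against 0.01 over all genes tested. For 4 of them the TMM-scaled CPM of the groups did not overlap, with Ccne2 and Cdk6 above WT and Ccnd1 and Cdk14 below it. In the deposited RPKM the groups of Cdk6 overlapped. Groups without overlap were found for 13.8% of all genes tested, 6.43% with ORP4L KI above and 7.38% with it below.

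**Figure D1:**
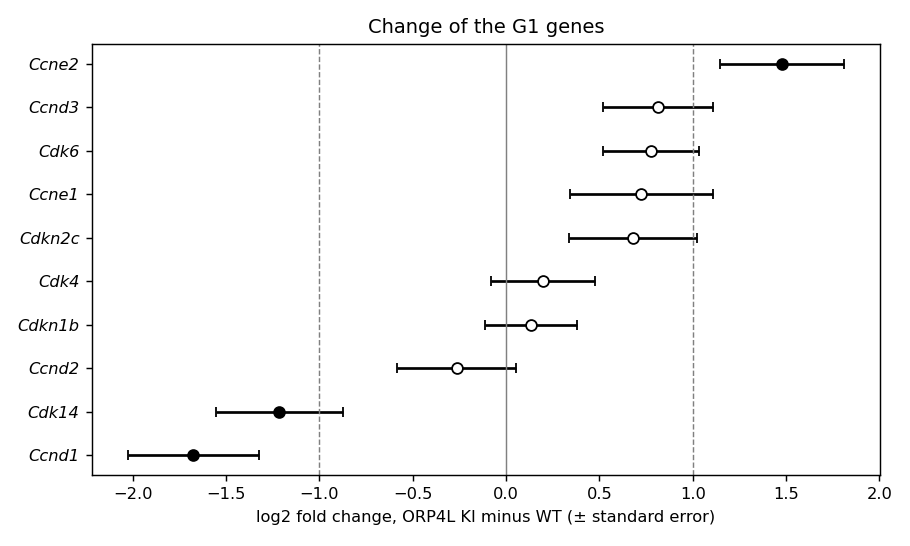
Log2 fold change (ORP4L KI minus WT) of the 10 G1 genes on the horizontal axis, with error bars of 1 standard error; filled circles are called genes, open circles are not called, and dashed lines mark a change of 1. Ccne2 lies highest at 1.48, Ccnd1 lowest at -1.67 and Cdk14 next at -1.21.

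Ccnd1, which encodes cyclin D1, had the largest change of the 10 genes and fell in ORP4L KI T-cells. It was at 60.9, 57.4 and 43.9 CPM in WT replicates 1 to 3, and at 8.34, 22.1, 24.6 and 12.6 CPM in ORP4L KI replicates 1 to 4. All 4 ORP4L KI libraries lay below all 3 WT libraries, and replicate 1 was the lowest. The mean was 54.1 ± 8.98 CPM in WT (SD, n = 3) and 16.9 ± 7.70 CPM in ORP4L KI (SD, n = 4). The log2 fold change was -1.67 (SE 0.35), with an adjusted p of 0.0736 by edgeR's quasi-likelihood test, and the adjusted p ranged from 0.000899 to 0.313 over 14 alternatives of scaling, filter, test and left-out library. It was 0.0342 without ORP4L KI replicate 2, and without ORP4L KI replicate 1 the log2 fold change was -1.45. The values rest on 625 to 981 reads in WT and 137 to 428 in ORP4L KI. The gene lies at chr7:144929931-144939925 on the minus strand (GRCm38).

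Ccnd2, which encodes cyclin D2, differed by less than the spread between mice. Its CPM was 85.7, 66.6 and 109.3 in WT and 45.6, 115.6, 70.1 and 59.0 in ORP4L KI. The ORP4L KI libraries held both the lowest and the highest value. The log2 fold change was -0.26 (SE 0.32), with an adjusted p of 0.810 by edgeR's quasi-likelihood test.

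Ccnd3, which encodes cyclin D3, was the D-type cyclin with the most reads in both groups. It stood at 176.6, 170.8 and 123.8 CPM in WT and at 408.5, 175.5, 254.4 and 266.2 CPM in ORP4L KI. Replicates 1, 3 and 4 of ORP4L KI lay above every WT library, while replicate 2 lay between the WT values. The log2 fold change of 0.81 (SE 0.29) was under the fold threshold, with an adjusted p of 0.250 by edgeR's quasi-likelihood test. Without ORP4L KI replicate 1 the log2 fold change was 0.56.

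**Figure D2:**
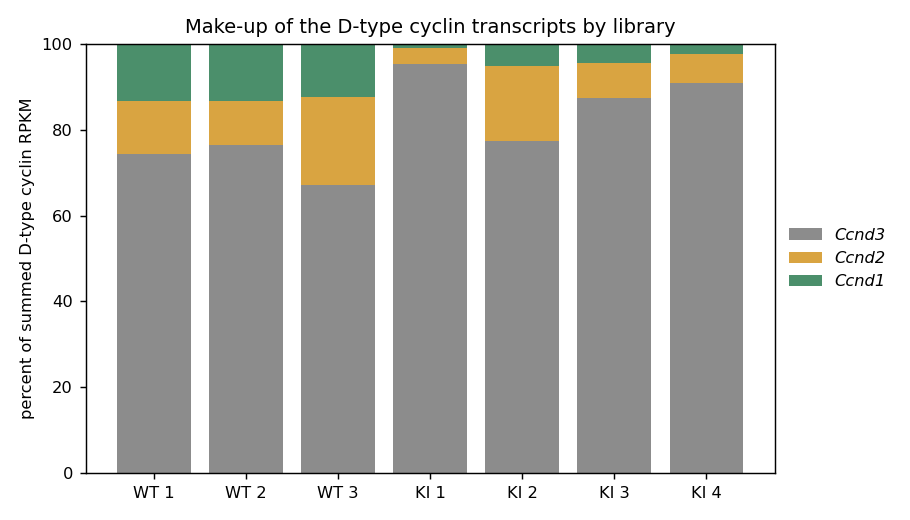
Share of each D-type cyclin in the summed RPKM of Ccnd1, Ccnd2 and Ccnd3, in percent on the vertical axis, with 1 stacked bar for each of the 7 libraries. Ccnd3 fills 67.2% to 76.4% of the bar in WT and 77.4% to 95.3% in ORP4L KI, and Ccnd1 12.4% to 13.4% in WT and 1.015% to 5.09% in ORP4L KI.

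Set on the RPKM scale, Ccnd3 made up 72.6% ± 4.81 of the D-type cyclin transcripts in WT (SD, n = 3) and 87.7% ± 7.62 in ORP4L KI (SD, n = 4). Ccnd1 made up 13.1% ± 0.543 and 3.19% ± 1.89. Ccnd2 ranged from 10.2% to 20.4% in WT and from 3.65% to 17.5% in ORP4L KI. The summed RPKM of the D-type cyclins was 129.9, 112.7 and 102.5 in WT and 180.5, 124.6, 146.5 and 136.2 in ORP4L KI, so that 3 of the 4 ORP4L KI libraries lay above the highest WT library and replicate 2 did not. The ratio of Ccnd1 to Ccnd3 was 0.180, 0.175 and 0.185 in WT and 0.0106, 0.0657, 0.0504 and 0.0247 in ORP4L KI. The WT mice lay close together, and every ORP4L KI mouse lay below them. The mean log2 ratio differed by -2.56, with a two-sided exact permutation p of 0.0571 over all 35 arrangements, where the smallest possible p is 0.0286. Of 6 ratios between G1 genes compared in this way it had the lowest p, which was 0.343 after Benjamini-Hochberg adjustment over the 6. For Ccnd2 to Ccnd3 the difference was -1.09 (exact permutation p = 0.2), and the groups overlapped.

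In front of a transcription start of Ccnd3, RefSeq's table for GRCm38.p6 gives the 250 bases at chr17:47504801-47505050, plus strand. They hold 2 copies of the GC box GGGCGG, a sequence that Sp1 is known to bind, read on the other strand as CCGCCC and printed in capitals, 152 and 18 bases before the start. The same window of Cdk14, the only called gene with an entry in that table, lies at chr5:5380252-5380501 on the minus strand, with 2 GC boxes 151 and 124 bases before the start. Both are shown 5′ to 3′, so that an upstream sequence of the most abundant D-type cyclin can be set beside that of the kinase that fell. Ccnd3 has another window in that table, not shown here, at chr17:47593217-47593466 on the plus strand. It overlaps an annotated exon and holds 1 GC box, 46 bases before its start. Which start of Ccnd3 these cells use was not tested.
Ccnd3: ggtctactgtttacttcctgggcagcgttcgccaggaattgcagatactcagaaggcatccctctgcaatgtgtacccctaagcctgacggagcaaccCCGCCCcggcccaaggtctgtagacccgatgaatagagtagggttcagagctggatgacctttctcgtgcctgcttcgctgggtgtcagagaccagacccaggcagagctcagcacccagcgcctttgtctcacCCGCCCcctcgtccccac
Cdk14: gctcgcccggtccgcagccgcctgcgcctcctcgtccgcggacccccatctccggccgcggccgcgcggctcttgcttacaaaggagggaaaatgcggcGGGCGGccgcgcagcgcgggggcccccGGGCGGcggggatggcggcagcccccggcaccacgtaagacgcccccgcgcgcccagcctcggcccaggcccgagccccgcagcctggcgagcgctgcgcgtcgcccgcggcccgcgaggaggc
An entry was found for 7 of the 10 genes, and Ccnd1, Ccnd2 and Ccne2 had none. A GC box stood on either strand in at least 1 window of 6 of these 7, all but Cdk6, and in 32.7% of the 32851 windows of the table. The first is a count of genes and the second a share of windows, so they are not alike. Ccnd3 and Cdkn2c have 2 windows each, and 1 of those of Cdkn2c has no GC box. The E2F letters TTTCCCGC, TTTGGCGC, TTTCGCGC and TTTGCCGC, on either strand, were in 1.86% of all windows and in 0 of the windows of the G1 genes. These letters are a description of the windows only. GC boxes stood before Cdk14, which fell, and before genes that were not called.

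Ccne2, which encodes cyclin E2 and is a known E2F target, rose in ORP4L KI T-cells. It lies at chr4:11191351-11204779 on the plus strand (GRCm38). Its CPM was 4.60, 3.40 and 4.71 in WT and 18.8, 9.15, 9.48 and 9.83 in ORP4L KI. Every ORP4L KI library lay above every WT library, with replicate 1 far above the other three. The mean was 4.23 ± 0.727 CPM in WT (SD, n = 3) and 11.8 ± 4.64 CPM in ORP4L KI (SD, n = 4). Its log2 fold change was 1.48 (SE 0.33), and 1.16 without ORP4L KI replicate 1. By edgeR's quasi-likelihood test the adjusted p was 0.0879, with a range of 0.00154 to 0.374 over the 14 alternatives. Ccne2 is a gene with few reads, 54 to 74 in WT and 158 to 308 in ORP4L KI.

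Ccne1, which encodes cyclin E1, was not called. It was at 11.1, 8.18 and 4.78 CPM in WT and at 21.3, 10.02, 12.6 and 9.02 CPM in ORP4L KI. Replicates 1 and 3 of ORP4L KI lay above all WT libraries and replicates 2 and 4 did not. Its log2 fold change was 0.72 (SE 0.38), with an adjusted p of 0.464 by edgeR's quasi-likelihood test, and 0.40 without ORP4L KI replicate 1. The ratio of Ccne2 to Ccne1 was 0.269, 0.269 and 0.637 in WT and between 0.485 and 0.705 in ORP4L KI, and the difference of 0.70 in the mean log2 ratio had an exact permutation p of 0.171 (adjusted p = 0.4 over the 6 ratios).

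**Figure D3:**
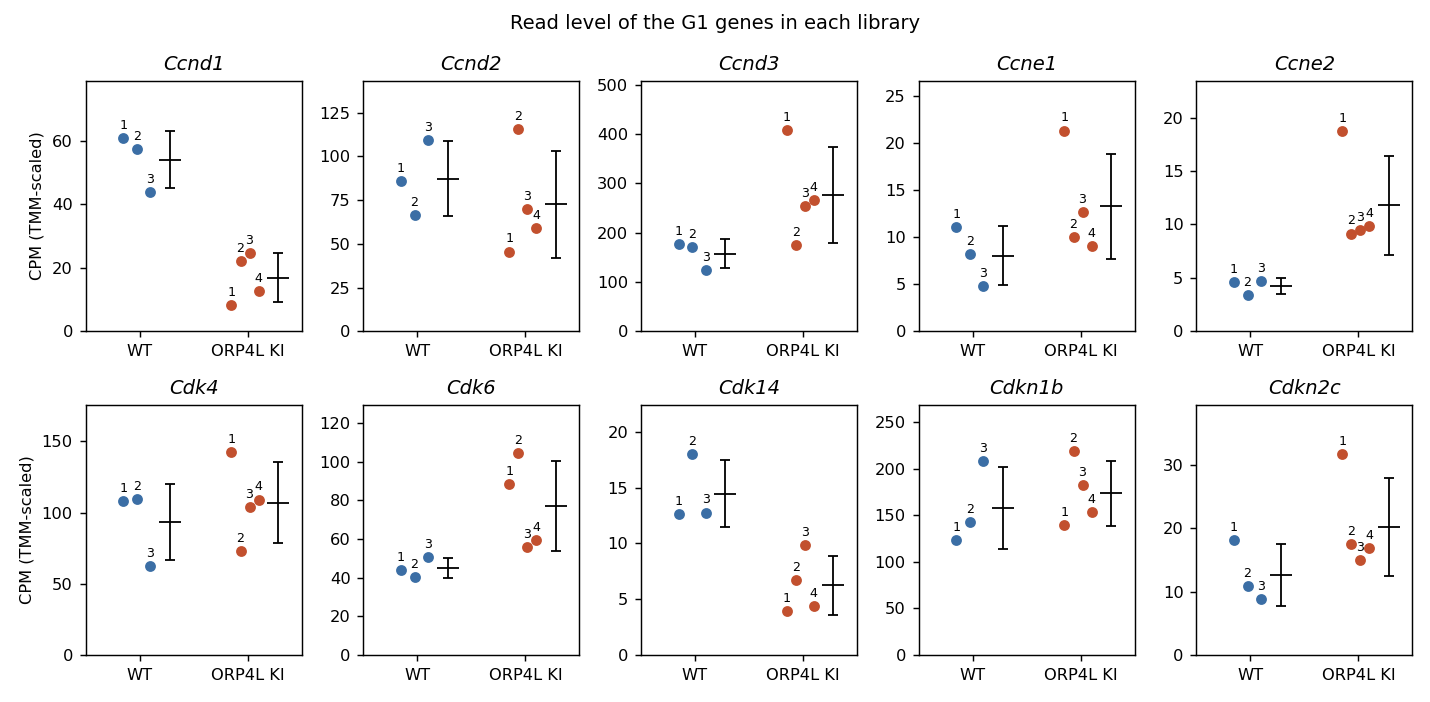
TMM-scaled CPM of the 10 G1 genes, 1 panel per gene with its own axis; each point is 1 library (3 WT, 4 ORP4L KI), with the mean as a line and the SD as an error bar. The points of both groups are apart in Ccnd1, Ccne2, Cdk6 and Cdk14 and overlap in the other 6 genes.

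Cdk14 encodes a kinase of the PFTAIRE group that is activated at the membrane by cyclin Y and is known to phosphorylate the Wnt co-receptor LRP6. Its transcript fell in ORP4L KI T-cells, from 12.7, 18.0 and 12.8 CPM in WT to 3.96, 6.74, 9.82 and 4.42 CPM in ORP4L KI. The highest ORP4L KI library, replicate 3, stood below the lowest WT library. The mean was 14.5 ± 3.04 CPM in WT (SD, n = 3) and 6.23 ± 2.68 CPM in ORP4L KI (SD, n = 4). The log2 fold change was -1.21 (SE 0.34), with an adjusted p of 0.144 by edgeR's quasi-likelihood test and a range of 0.0254 to 0.477 over the alternatives. The call was lost when 1 of 4 libraries was left out, with log2 fold changes of -1.08 without ORP4L KI replicate 4 and -1.30, -1.03 and -1.30 without WT replicate 1, 2 and 3. It held without ORP4L KI replicate 1, at -1.05. Cdk14 lies at chr5:4803391-5420312 on the minus strand (GENCODE M21, GRCm38), so that the start of the RefSeq entry used for the window above is inside this span, and that window overlapped no annotated exon.

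Cyclin Y, the activator of Cdk14, did not pass the test. Ccny was at 70.6, 68.8 and 97.4 CPM in WT and at 74.7, 96.4, 71.5 and 80.0 CPM in ORP4L KI, with a log2 fold change of 0.03 (SE 0.20), which was -0.11 with libraries scaled by total counts alone and -0.03 with upper-quartile scaling. Of 6 relatives of Cdk14 and cyclin Y (Ccny, Ccnyl1, Cdk15, Cdk16, Cdk17 and Cdk18), 5 were tested, with a median log2 fold change of 0.10, and 1 was called higher, as were 2.38% of all genes tested. This was Cdk18, a kinase of the neighbouring PCTAIRE group, with 5, 3 and 10 reads in WT and 116, 19, 35 and 79 in ORP4L KI. Its CPM of 0.31, 0.19 and 0.70 in WT was below the 7.06, 1.04, 2.01 and 4.91 of ORP4L KI, and the log2 fold change was 3.22 (SE 0.77), with an adjusted p of 0.102 by edgeR's quasi-likelihood test. Its call was lost without WT replicate 1 (3.07) or WT replicate 2 (2.88). Cdk15 had 0 reads in all 7 libraries. A count of 0 in a library still allows an expected count of up to 3 reads there.

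Cdk6, the D-type cyclin partner that T-cells use beside Cdk4, stayed under the fold threshold. In TMM-scaled CPM it was higher in all 4 ORP4L KI libraries than in any WT library. Its CPM was 43.9, 40.3 and 50.9 in WT and 88.6, 104.7, 55.9 and 59.7 in ORP4L KI. Replicate 2 of ORP4L KI was highest, in contrast to Ccnd3, for which it was lowest. The log2 fold change was 0.78 (SE 0.26), with an adjusted p of 0.201 by edgeR's quasi-likelihood test, and 0.58 without ORP4L KI replicate 2. In RPKM the groups overlapped, with ORP4L KI replicates 3 and 4 at 4.83 and 4.76 and WT replicate 3 at 4.86. With libraries scaled by total counts alone, the unadjusted p of Cdk6 was 0.0534 by edgeR's quasi-likelihood test. Cdk4 was at 108.0, 109.5 and 62.5 CPM in WT and at 142.5, 72.8, 103.6 and 109.2 CPM in ORP4L KI, with overlapping groups. Its log2 fold change of 0.20 (SE 0.28) had an adjusted p of 0.840 by edgeR's quasi-likelihood test and took the other sign, at -0.02, without WT replicate 3. In RPKM, the ratio of Cdk6 to Cdk4 was 0.0501, 0.0454 and 0.100 in WT and 0.0766, 0.177, 0.0666 and 0.0673 in ORP4L KI (exact permutation p = 0.343, adjusted p = 0.429 over the 6 ratios).

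The inhibitors did not pass the test. Cdkn1b, which encodes p27, was at 123.5, 142.6 and 207.6 CPM in WT and at 139.0, 218.5, 182.1 and 153.3 CPM in ORP4L KI. All but the highest of its ORP4L KI values fell within the WT range, and the log2 fold change of 0.13 (SE 0.25) had an adjusted p of 0.883 by edgeR's quasi-likelihood test. It turned to just under 0 without WT replicate 1 or without ORP4L KI replicate 2. Cdkn2c, which encodes p18 and binds Cdk4 and Cdk6, was at 18.1, 10.9 and 8.85 CPM in WT and at 31.7, 17.5, 15.0 and 16.8 CPM in ORP4L KI. Only replicate 1 of ORP4L KI exceeded the highest WT library. Its log2 fold change was 0.68 (SE 0.34), with an adjusted p of 0.442 by edgeR's quasi-likelihood test, and 0.38 without ORP4L KI replicate 1. Neither the ratio of Cdkn2c to Cdkn1b (log2 difference 0.54, exact permutation p = 0.4) nor that of the summed D-type cyclins to Cdkn1b (0.35, exact permutation p = 0.429) passed, with adjusted p of 0.429 for both.

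On the length-scaled RPKM, Ccnd3, Cdkn1b and Cdk4 headed the order of levels in WT, with 83.8 ± 13.9, 69.9 ± 21.8 and 69.2 ± 18.2 RPKM (SD, n = 3) and overlapping ranges. Ccnd2, Ccnd1 and Cdkn2c followed at 16.1 ± 4.67, 15.1 ± 2.31 and 12.1 ± 4.89 RPKM, again with overlap between neighbours. Ccne1, Cdk6 and Cdk14 lay between 3.10 and 4.32 RPKM on average and overlapped, and Ccne2 was lowest at 1.49 ± 0.324 RPKM. In ORP4L KI, Ccnd3 had the highest mean with 130.1 ± 31.3 RPKM (SD, n = 4), above Cdk4 (70.7 ± 11.5) in all 4 libraries. In replicate 2 Cdkn1b, at 98.9 RPKM, was slightly above Ccnd3, at 96.5 RPKM. Ccnd1, which neighboured Ccnd2 and Cdkn2c in WT, stood between Ccne1 and Ccne2 there with 4.42 ± 2.34 RPKM, and overlapped both. Cdk14 was last at 1.25 ± 0.611 RPKM, with no overlap with Ccne2 (3.64 ± 1.03), whereas in WT every Cdk14 value had been above every Ccne2 value.

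Beyond these genes, 29 others of the G1 pathway were examined, namely further inhibitors, Cdk2, pocket proteins, E2F factors and their partners, the Cdk-activating kinase and regulators of cyclin stability, and all 29 were tested. Of these, 3 were called higher (10.3%) and 0 lower, against 2.38% and 2.3% of all genes tested. An unadjusted p under 0.05 was found for 8, all higher, against 6.85% of all genes tested that were higher at that threshold. At an adjusted p under 0.05 edgeR's quasi-likelihood test called 0 and DESeq2's Wald test 3 (5.82% of all genes). In sign, 19 were higher and 10 lower, with a median log2 fold change of 0.35. Without ORP4L KI replicate 1 the median was 0.17, and 1 of the 29 was called higher, against 2.06% of all genes tested in that fit.

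**Figure D4:**
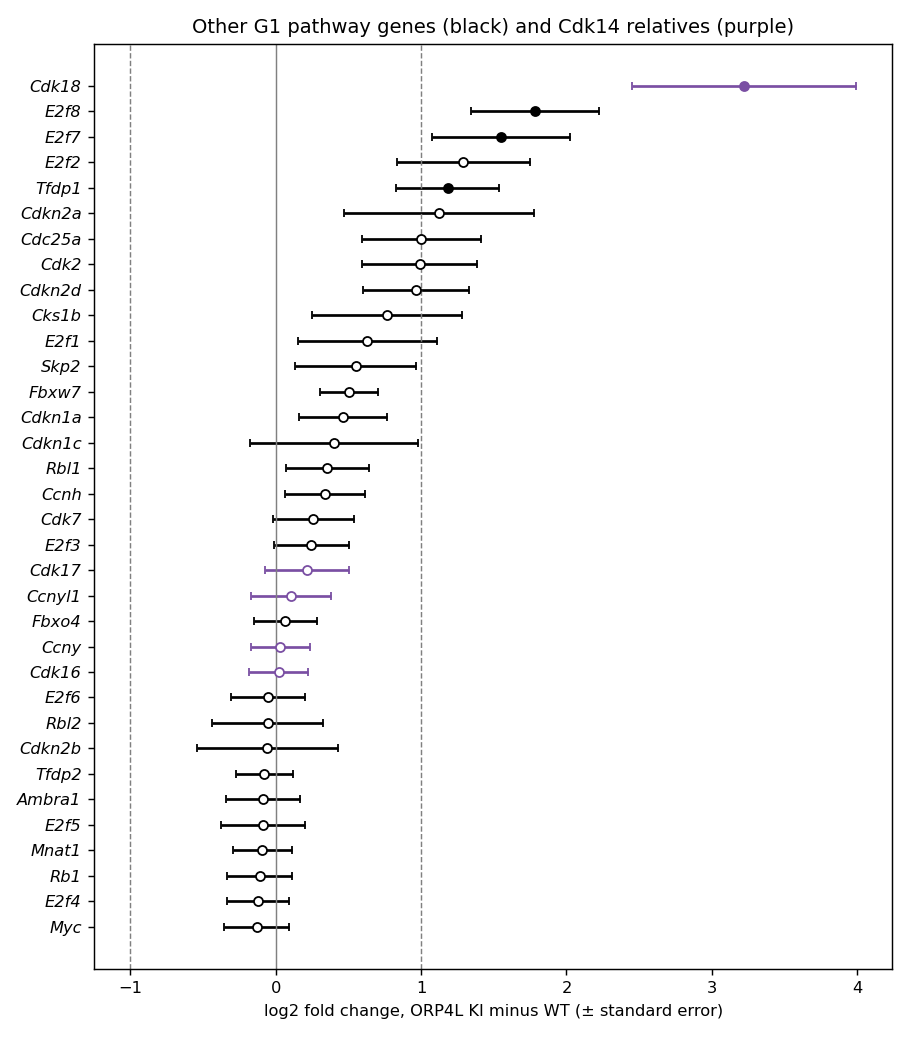
Log2 fold change (ORP4L KI minus WT, horizontal axis) of the other G1 pathway genes and the relatives of Cdk14, with error bars of 1 standard error; filled circles are called genes. E2f7, E2f8 and Tfdp1 are called among the pathway genes and Cdk18 among the relatives.

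Of the 29, 10 are E2F factors or their DP partners, of which 6 were higher and 4 lower in sign, and all 3 called pathway genes were among them. The 4 lower ones had log2 fold changes of -0.12 to -0.05 and did not pass the test. E2f8, an atypical E2F that represses transcription, rose from 13.7, 9.68 and 6.95 CPM in WT to 66.5, 21.4, 24.3 and 27.2 CPM in ORP4L KI, a log2 fold change of 1.78 (SE 0.44). E2f7, its close relative, was at 2.80, 2.14 and 1.12 CPM against 10.7, 5.20, 4.02 and 3.92 CPM, a log2 fold change of 1.55 (SE 0.47). Tfdp1, which encodes the DP1 partner of typical E2F factors, was at 58.3, 53.8 and 47.7 CPM against 218.3, 84.9, 91.6 and 88.8 CPM, a log2 fold change of 1.18 (SE 0.35). The groups did not overlap for any of these, with ORP4L KI above WT, as was found for 6.43% of all genes tested. By edgeR's quasi-likelihood test the adjusted p was 0.110 for E2f8, 0.172 for E2f7 and 0.164 for Tfdp1. ORP4L KI replicate 1 had the highest value each time. Without it E2f8 stayed called at 1.26, and E2f7 (1.11) and Tfdp1 (0.73) did not. Leaving out a WT library also ended calls: E2f7 and Tfdp1 lost theirs without any single one of the 3 (E2f7 1.86, 1.59 and 1.27, Tfdp1 1.25, 1.19 and 1.11 without WT replicate 1, 2 and 3), E2f7 also without ORP4L KI replicate 2 (1.60), and E2f8 without WT replicate 2 (1.75) or 3 (1.58).

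A further 5 pathway genes had an unadjusted p under 0.05 and were not called. E2f2, an activating E2F, had a log2 fold change of 1.29 (SE 0.46), Cdk2, the partner of cyclin E, 0.99 (SE 0.39), and Cdc25a, the phosphatase that activates Cdk2, 1.00 (SE 0.41). Cdkn2d, the p19 inhibitor, had 0.96 (SE 0.36), and Fbxw7, the ubiquitin ligase subunit that marks cyclin E for destruction, 0.50 (SE 0.20). In Cdk2 the lowest ORP4L KI library, at 28.4 CPM, lay just under the highest WT library. Without ORP4L KI replicate 1 these log2 fold changes were 0.66 for E2f2, 0.48 for Cdk2, 0.45 for Cdc25a, 0.57 for Cdkn2d and 0.36 for Fbxw7, and that of Fbxw7 no longer had an unadjusted p under 0.05. Each of the 5 also lost it with certain other libraries left out. E2f2 did so without WT replicate 3, Cdk2 without WT replicate 2 or 3, and Cdkn2d without WT replicate 1 or 3. Cdc25a did so without any single WT library, and Fbxw7 without WT replicate 1 or 2 or ORP4L KI replicate 2.

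Marker lists of other cells moved with the groups, and in bulk RNA fewer cells of a type and less RNA per cell cannot be told apart. Of 7 dendritic cell markers, 7 were lower in ORP4L KI, and their summed share of counts was 0.0537% to 0.0747% in WT and 0.0119% to 0.0262% in ORP4L KI. As with Ccnd1 and Cdk14, this share was lowest in ORP4L KI replicate 1 and highest in replicate 3. Of 14 granulocyte markers, 13 were higher, and their share was 0.259% to 0.564% in WT against 12.2%, 1.13%, 3.07% and 4.90% in ORP4L KI replicates 1 to 4. Ccnd3 and Cdk4 ranked these ORP4L KI replicates in the same order as the granulocyte share, which is also that of the monocyte and macrophage share. Ccnd2 and Cdkn1b ranked them in the reverse order, which is that of the T-cell and NK marker shares. Erythroid markers (3 of 8 higher) took 1.08% to 1.85% in WT and 0.115% to 0.846% in ORP4L KI. The summed shares of the other lists overlapped between groups. T-cell markers (6 of 9 higher) took 0.162% to 0.258% in WT and 0.0931% to 0.361% in ORP4L KI, with ORP4L KI replicate 1 the lowest. B-cell markers (0 of 8 higher) took 0.0378% to 0.0634% and 0.0219% to 0.0606%, and NK markers (1 of 6 higher) 0.0514% to 0.0636% and 0.0185% to 0.0879%. Monocyte and macrophage markers (1 of 8 higher) took 0.0871% to 0.115% and 0.0779% to 0.143%, and megakaryocyte markers (5 of 6 higher) 0.0193% to 0.0254% and 0.0113% to 0.0369%. Single genes within these lists were apart. Csf1r was at 226.0 to 345.2 CPM in WT and 98.3 to 138.5 CPM in ORP4L KI. Adgre1, Cd68 and Mertk also lay below WT in every ORP4L KI library, and Ly6c2 above. Of the NK markers, Ncr1, Klrb1c and Gzma lay below WT in every ORP4L KI library, and Eomes above. No marker was at 0 in any library, and the part of these cells in the values of the G1 genes was not tested.

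Genes of S phase and mitosis, which include E2F targets, were higher in ORP4L KI for 20 of 20, with a median log2 fold change of 1.06, or 0.67 without ORP4L KI replicate 1. Of these, 12 had an unadjusted p under 0.05, against 6.85% of all genes that were higher at that threshold, and 3 were called, against 2.38%. Without ORP4L KI replicate 1, 1 of the 20 was called, against 2.06% of all genes called higher in that fit. Their summed share of counts was 0.0983% to 0.148% in WT and 0.242%, 0.171%, 0.159% and 0.154% in ORP4L KI replicates 1 to 4. Ccne2 was likewise highest in replicate 1, and Ccnd1 lowest.

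Over the 7 libraries and 10215 genes with a mean of at least 5 CPM, the log2 CPM of Cdk14 was most like that of Brat1 (Pearson r = 0.989), Rasgef1b (0.986) and Mreg (0.981). Ccnd1 was most like Rftn1 (r = 0.996), Ube3b (0.991) and Slc46a3 (0.987), and Ccne2 most like Slc25a24, Zmpste24 and Lipg (0.99 each). These are descriptions over libraries of both groups, which differ in depth and in the marker shares above.

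**Figure D5:**
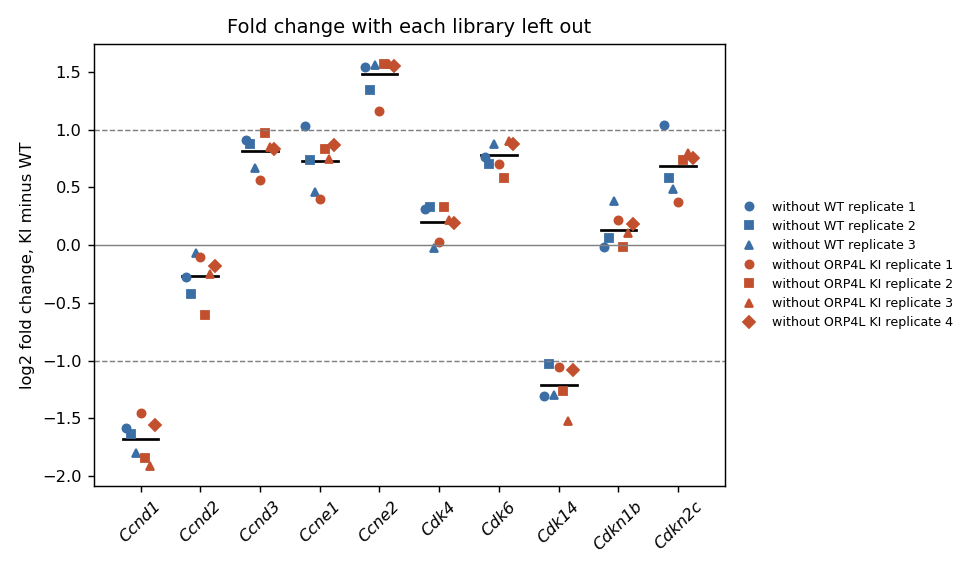
Log2 fold change (ORP4L KI minus WT) of the 10 G1 genes with all libraries (black bars) and with each of the 7 libraries left out in turn (points); the dashed lines mark a change of 1. Ccnd1 stays between -1.91 and -1.45, Ccne2 between 1.16 and 1.57 and Cdk14 between -1.52 and -1.03, and Cdk4 and Cdkn1b reach both sides of 0.

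With each library left out, the sign of 8 of the 10 genes stayed the same, Cdk4 and Cdkn1b being the exceptions, and Ccnd1 and Ccne2 stayed called every time. Another scaling did not turn the sign of any of the 10. Without ORP4L KI replicate 1 the log2 fold change was -0.10 for Ccnd2, 0.70 for Cdk6, 0.03 for Cdk4 and 0.22 for Cdkn1b. Ccnd2 ranged from -0.60 to -0.07, Ccnd3 from 0.56 to 0.97 and Cdk6 from 0.58 to 0.90.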

How the data were processed

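T-cell RNA of 3 WT and 4 ORP4L KI mice was sequenced, grouped by the genotype in the labels. The authors discarded reads under 17 nt, used FANSe3 to map the rest to a mouse mRNA reference, and deposited, over the merged splice variants of a gene, its read count without normalization and its RPKM, which scales the count by transcript length and library size. The submitters' processing notes name the build mm10 (GRCm38). Treatment of reads shared by paralogs is not given in the sources used here, so counts of close relatives are uncertain. The deposited RPKM was used for levels between genes and for ratios.

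The deposited counts were fitted with edgeR 4.0.16 under R 4.3.3 (filterByExpr, minimum count 10, TMM, quasi-likelihood test without covariates). DESeq2 1.42.0 was an alternative, beside other scalings and filters, a replicate block and left-out libraries. Standard errors were the log2 fold change divided by the square root of F. Precision covers spread between mice. The tests were tested on simulated data. Promoter windows came from RefSeq and gene positions from GENCODE M21, both GRCm38. Ratios were compared by a two-sided exact permutation test, with Python 3.11.15 and SciPy 1.17.1. All members and lists were chosen with earlier results of these data known. Named were the 10 genes, other pathway genes past a threshold or lowest in p (10 in all, with Ccny), and the 3 genes most alike to Cdk14 and to each of the pair with the largest changes.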

Additional observations from a re-analysis of the deposited data

Results flagged for a closer look

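By Dixon's criterion, the highest or lowest of the 4 ORP4L KI libraries lay far from the others in 8 of 29 groups of values examined. The criterion marks about 1 in 20 independent groups by chance. These groups come from the same libraries and are not independent, so the number marked cannot be set against that rate. In 7 of the 8 marked groups it was ORP4L KI replicate 1 that lay above. Ccne2 was at 18.75 CPM there, with the others at 9.15 to 9.83, and Cdkn2c at 31.71 CPM, with the others at 14.99 to 17.47. The same library held E2f8 at 66.47 CPM (others 21.42 to 27.18), Tfdp1 at 218.3 CPM (84.9 to 91.55) and E2f2 at 183.7 CPM (47.71 to 63.35). Cdk2 was at 89.18 CPM there (others 28.43 to 36.01) and Cdc25a at 65.74 CPM (21.21 to 24.58). This is also the library with the highest granulocyte marker share, 12.2% of its counts, and the part of that share in these values was not tested. The remaining value was the log2 ratio of Cdk6 to Cdk4, at -2.496 in ORP4L KI replicate 2 against -3.909 to -3.707 in the others.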

How the results depend on the processing

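Over 14 distinct alternatives of the log2 fold changes, the 10 G1 genes kept their direction and side of the threshold in 132 of their values, lost the threshold in 5, all of Cdk14, and turned sign in 3. With one library left out, Cdk14 ranged from -1.52 to -1.03, Cdk4 from -0.022 to 0.33 and Cdkn1b from -0.018 to 0.38. The called genes among all tested ranged from 328 (without WT replicate 2) to 805 (without ORP4L KI replicate 2) with one library left out, against 630. By DESeq2's Wald test 855 genes met the same rule. At an adjusted p under 0.05, 3 genes were called in all, against 784 by DESeq2's Wald test, 176 without a filter, 113 with total counts alone, 44 with upper-quartile scaling and 0 with at least 10 counts in every library (1549 at an unadjusted p under 0.05), and 0 to 342 with one library left out. It was 342 without ORP4L KI replicate 2 and 0 without ORP4L KI replicate 4 or any WT library (1260 to 1759 at an unadjusted p under 0.05). At that threshold the G1 genes numbered 3 by DESeq2's Wald test, 1 without a filter and 0 to 1 with one library left out, against 0. The other pathway genes numbered 3 by the Wald test and 0 to 1 with one library left out, and the relatives of Cdk14 1 and 0 to 1. By the unadjusted rule the pathway genes numbered 1 with total counts alone and 0 to 4 with one library left out, against 3, with 4 to 8 at an unadjusted p under 0.05 alone. Over all genes that rule called 682 of 13462 with total counts alone, and 328 to 805 with one library left out. An unadjusted p under 0.05 held for 1260 to 2194 of all genes with one library left out, where 13275 to 13702 were tested. The relatives numbered 0 with at least 10 counts in every library, by both of these thresholds, since Cdk18 did not pass that filter. With one library left out they numbered 0 to 1 by the unadjusted rule, and 1 each time at an unadjusted p under 0.05 alone. Ccny turned sign with total counts alone (-0.11), with upper-quartile scaling (-0.028) and with one library left out (-0.085 to 0.21). Total counts alone moved the median of all genes by -0.14 and the share of called genes that were higher from 50.8% to 40.3%.

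Replicate numbers are shared by both groups, but same-numbered libraries did not deviate together (correlations 0.15, -0.53 and 0.00, mean -0.13, against 0.04 for unlike numbers). Unlike numbers ranged from -0.39 to 0.51, so these few values cannot tell whether the replicate numbers pair the mice. With the replicate block over replicates 1 to 3, 48 genes had an adjusted p under 0.05, against 0 (1421 at an unadjusted p under 0.05) for the same 6 libraries without it, which is the fit without ORP4L KI replicate 4, and Cdk14 was at -1.16 with the block and -1.08 without, both short of the threshold. Genes with few reads, such as Ccne2, Cdk18 and E2f7, are limited by depth as well as by the number of mice.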
